A study of Mus musculus with 8 samples.

Results

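The enzymes and the chaperone that finish a collagen molecule were followed in murine oviductal epithelial (MOE) cells: the 5 lysyl oxidases Lox, Loxl1, Loxl2, Loxl3 and Loxl4, the propeptidase Bmp1, the 3 lysyl hydroxylases Plod1, Plod2 and Plod3, and the collagen chaperone Serpinh1. They were chosen by gene symbol, with earlier results of these data known, and all 10 had a row among the 23337 gene symbols measured. Tested cells were plated on 3D collagen gels, and the cells they were set against on 2D collagen, with 4 RNA sequencing libraries each (replicates 1 to 4). All 8 libraries came from a cell line of FVB mouse background, with no genotype change or drug given in the labels, and all were taken after 6 h on collagen in the line's standard medium lacking EGF. The oviduct is the mouse counterpart of the fallopian tube, and the study is about how tumours that start there reach the ovary. All values describe 1 cell line, and nothing in the labels ties the replicates to separate cultures, so that each p-value reflects only library-to-library spread, part of which may be technical.

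Collagen chains are modified while they are still inside the endoplasmic reticulum. Lysyl hydroxylases add hydroxyl groups to some lysines there, and SERPINH1 (also called HSP47) binds the folded triple helix until it is exported. Outside or on the way out, BMP1 removes the C-terminal propeptides of fibrillar procollagens, and the copper-dependent lysyl oxidases convert lysines of collagen and elastin into aldehydes that form cross-links. An epithelium such as that of the oviduct rests on a basement membrane whose main collagen, type IV, is also cross-linked.

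The lysyl oxidases share a catalytic domain at the C-terminal end, and LOXL2, LOXL3 and LOXL4 form a subgroup that carries scavenger receptor cysteine-rich domains in front of it. The stretches below, of 33 coding bases each, are the family's copper-binding region read from GENCODE M21 transcripts (GRCm38), 5′ to 3′ on the coding strand. They are shown because the activity of the family depends on copper, and capitals mark the 4 histidine codons.

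Loxl1: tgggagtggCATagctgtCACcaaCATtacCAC
Loxl2: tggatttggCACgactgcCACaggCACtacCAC
Loxl3: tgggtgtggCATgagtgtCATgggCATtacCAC
Loxl4: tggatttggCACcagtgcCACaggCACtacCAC

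Loxl2 differed from Loxl4 at 2 of these bases, Loxl3 at 8 and Loxl1 at 12, and the 4 histidine codons stood at the same places in all 4 genes. Over whole coding sequences the longest run without a mismatch was 23 bases for Loxl2 and Loxl4, 16 for Loxl3 and Loxl4, and 26 for Loxl1 and Loxl4. It was 28 for Loxl1 and Loxl2, 26 for Loxl2 and Loxl3, and 15 for Loxl1 and Loxl3. Lox, whose stretch is not shown, shared a run of 32 bases with Loxl1 and at most 14 with Loxl2, Loxl3 and Loxl4. Among lysyl hydroxylases the longest run was 24 bases for Plod1 and Plod3, 20 for Plod2 and Plod3, and 15 for Plod1 and Plod2. Read length is not stated in the labels or notes, so how often a read could fit 2 of these genes was not tested.

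The libraries held 15692699 to 25862036 reads assigned to genes, with 14064 to 14598 genes detected. Values below are normalized counts, meaning reads divided by 1 size factor per library. Cells on 3D collagen had 401 of 11820 tested genes lower and 275 higher (limma, Benjamini-Hochberg adjusted p under 0.05), and the median log2 fold change over all tested genes was 0.02. Scaled by library size alone, that median was 0.19, a shift of 0.17, and the split was 318 lower and 498 higher. Summed levels of the epithelial markers Krt8, Krt18, Krt19, Pax8, Epcam, Cdh1 and Ovgp1 were 4864 to 6491 CPM (reads relative to library depth) in 3D libraries and 5739 to 7107 CPM in 2D libraries. Of these markers Krt8 was called lower on 3D collagen (1006 to 1223 CPM in 3D libraries and 1427 to 1884 CPM in 2D libraries; log2 fold change -0.76, limma adjusted p 0.0397). Krt18 did not overlap between the groups either (2401 to 2924 CPM in 3D libraries and 3098 to 3438 CPM in 2D libraries; limma adjusted p 0.136). The part of these markers in the results below was not tested. Epcam did not exceed 1.26 CPM and Ovgp1, the oviduct glycoprotein, did not exceed 1.37 CPM in any library. Cdh1 was also low and did not exceed 5.23 CPM, so that the sum came almost wholly from Krt8, Krt18, Krt19 and Pax8. Of 8 fibroblast markers 6 stayed under 1 CPM in every library, and the list summed to 4.13 to 16.8 CPM in 3D libraries and 3.00 to 19.3 CPM in 2D libraries. One marker of that list passed the test, Pdgfra, which was higher in 3D libraries at under 1 CPM. Endothelial markers summed to 17.2 to 38.9 CPM in 3D libraries and 14.2 to 29.3 CPM in 2D libraries, mostly Kdr. Leukocyte markers summed to 18.7 to 30.3 CPM in 3D libraries and 7.33 to 18.6 CPM in 2D libraries, mostly Cd68. No gene of either list was called by limma. Smooth muscle markers summed to 242 to 890 CPM in 3D libraries and 432 to 2153 CPM in 2D libraries, mostly Acta2. Neither of the 2 genes tested in that list was called by limma (median log2 fold change -1.03). Their part in the results below was not tested. A list of 10 intestine genes reached 12.9 CPM in 3D replicate 1, 10.8 CPM in 3D replicate 2 and 23.1 CPM in 2D replicate 2, and 2.28 to 5.42 CPM in the other 5 libraries.

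Cells on 3D collagen had less mRNA for 2 of the 9 tested genes, Loxl4 and Bmp1. Loxl4, the most abundant lysyl oxidase of these cells, was 52.9% lower in mean on 3D collagen, and Bmp1 was 43.6% lower. Over all tested genes 3.39% were called lower, by the same limma test. None of the 9 was called higher, against 2.33% of all tested genes. The count of higher calls was also 0 with edgeR and with DESeq2, and 0 at an unadjusted p under 0.05 with each of the 3 tools. The limma p was under 0.05 before adjustment for 6 of the 9, all lower on 3D collagen, against 12.6% of all tested genes lower and 11.7% higher. All 4 values on 3D collagen lay below all 4 values on 2D collagen for 4 of the 9 (Loxl1, Loxl4, Bmp1 and Plod3), against 10.4% of all tested genes. Loxl1 passed the filter on low values mainly through the 2D group, and without it the count was 3 of 8. The log2 fold change was below 0 for 8 of the 9, with Plod2 the exception, against 48.5% of all tested genes, and the median was -0.62. Loxl1, whose direction the filter favoured, is also among these 8 and among the 6 with an unadjusted p under 0.05. The genes were chosen with earlier results of these data known, so these counts beside the shares of all tested genes are a description. In a bulk measurement, fewer cells with a transcript and less of it per cell cannot be told apart.

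**Figure D1:**
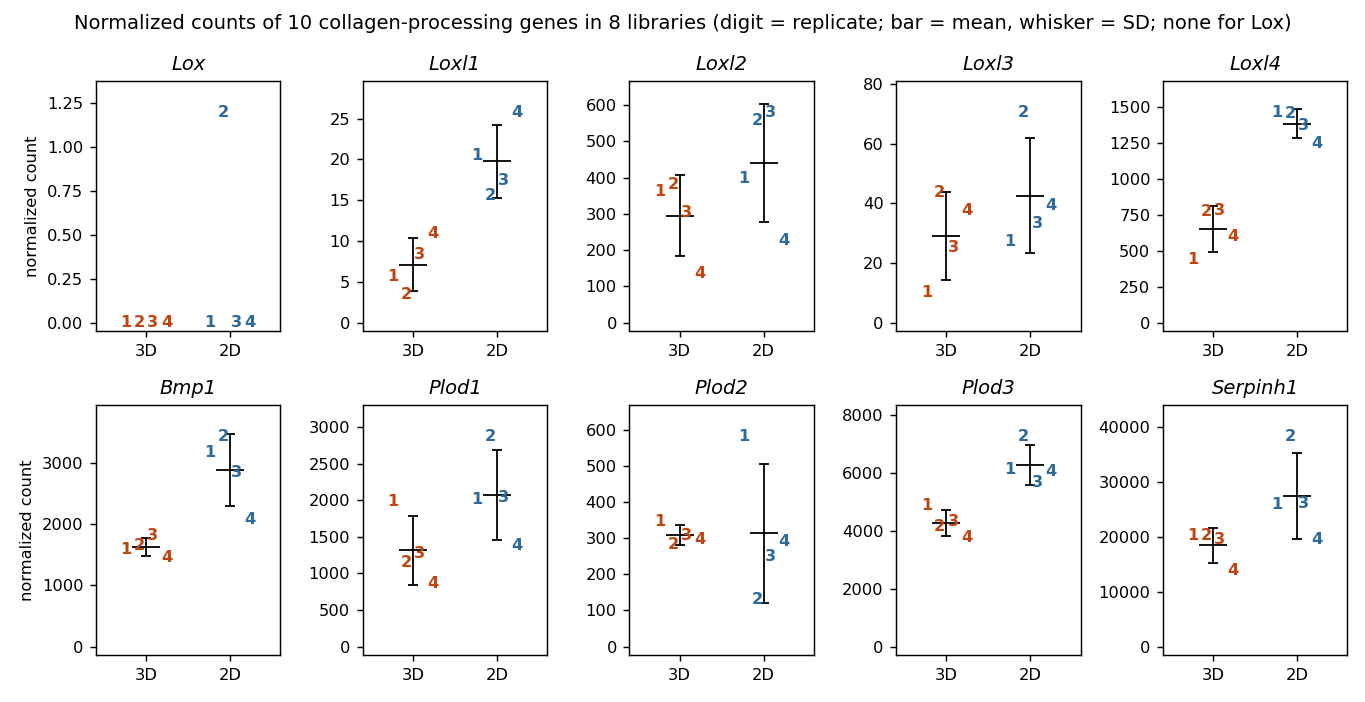
Normalized counts (vertical axis, linear from 0, a separate scale for each gene) of the 10 genes in the 4 libraries on 3D collagen (left in each panel) and the 4 on 2D collagen (right). Digits are replicate numbers, bars are means and whiskers SDs (none for Lox); the groups are apart for Loxl1, Loxl4, Bmp1 and Plod3, and Plod2 on 3D collagen lies inside the wide 2D range.

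**Figure D2:**
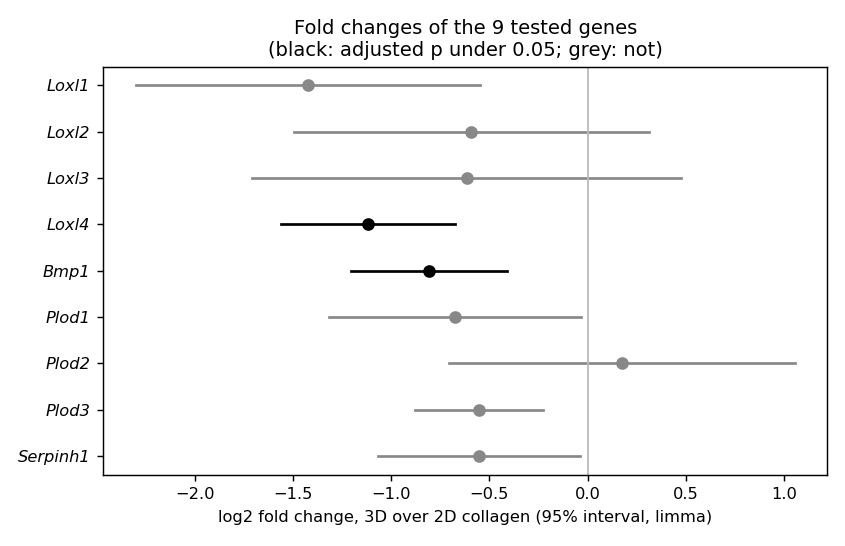
Log2 fold change of 3D over 2D collagen (horizontal axis) for each of the 9 tested genes, with the 95% interval from limma. Black marks the 2 genes with an adjusted p under 0.05, Loxl4 at -1.12 and Bmp1 at -0.81; Plod2 at 0.17 is the only point above 0.

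Among the lysyl oxidases, Loxl4 lies at chr19:42593982-42612813 on the minus strand (GRCm38, mm10; a protein-coding gene, as are the other 9). It had 443, 774, 782 and 602 normalized counts in 3D replicates 1 to 4. On 2D collagen it had 1459, 1451, 1368 and 1243 normalized counts. The lowest 2D library stood well above the highest 3D library, and the spread was wider on 3D collagen (coefficient of variation 24.8%) than on 2D collagen (7.29%). Loxl4 averaged 650.2 ± 161 normalized counts on 3D collagen and 1380.5 ± 101 on 2D collagen (SD, n = 4 each). Its log2 fold change was -1.12 (SE 0.20, 95% interval -1.56 to -0.68), with a limma Benjamini-Hochberg adjusted p of 0.0161. It passed the threshold when any 1 of the 8 libraries was left out (adjusted p 0.0259 to 0.0408 with limma). Without the 3 libraries in which intestine genes summed highest (2D replicate 2 and 3D replicates 1 and 2) it was -0.98 on the log2 scale and no longer passed (limma adjusted p 0.126), in a fit that called 14 genes lower and 0 higher in all (822 higher at an unadjusted p under 0.05).

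The sequence before the RefSeq start of Loxl4, at chr19:42612807-42613056 (GRCm38.p6, minus strand), is shown because Loxl4 changed the most of the genes that passed. It is 250 bases long and is written 5′ to 3′ in the direction of transcription, with the last base next to the start. Capitals mark matches to the SP1-type GC box GGGCGG on either strand.

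Loxl4: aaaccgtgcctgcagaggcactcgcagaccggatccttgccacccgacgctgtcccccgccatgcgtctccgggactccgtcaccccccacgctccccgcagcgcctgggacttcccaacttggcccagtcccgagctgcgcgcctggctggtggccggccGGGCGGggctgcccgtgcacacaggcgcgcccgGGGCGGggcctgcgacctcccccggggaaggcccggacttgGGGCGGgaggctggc

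GC boxes stood 89, 56 and 15 bases before the RefSeq start of Loxl4, while the GENCODE start, at 42612813, lies inside the window. Of the bases, 76.0% were G or C, against a median of 52.4% over 32851 mouse promoter windows of this length. A GC box was present in 32.7% of those windows. The TEAD core GGAATG (12.6% of windows), the hypoxia core ACGTG (16.6%), the heat shock pair GAANNTTC (6.69%), the SRF CArG box (1.47%) and the TATA core TATAAA (12.4%) were searched on both strands, and these letters are not in the Loxl4 window. A match is a description of the letters and not of binding.

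The genes whose log2 values followed those of Loxl4 most closely over the 8 libraries were 1810012P15Rik (Pearson r 0.982), Amotl2, an angiomotin family member (0.978), and 2010111I01Rik (0.972). These correlations describe 8 libraries that fall into 2 groups. Amotl2 averaged 3365 ± 895 normalized counts on 3D collagen and 8120 ± 1081 on 2D collagen (SD, n = 4 each), and its log2 fold change was -1.31 (adjusted p 0.0144 with limma). Since Amotl2 was picked for its likeness to Loxl4 over the same libraries, this is not a separate result.

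Loxl2, whose enzyme acts on type IV collagen among other substrates, lies at chr14:69609068-69695834 on the plus strand. It had 362, 381, 303 and 134 normalized counts in 3D replicates 1 to 4. On 2D collagen it had 397, 557, 579 and 228 normalized counts. Replicate 4 was the lowest library of each group, and the groups overlapped only through 2D replicate 4. The log2 fold change was -0.59 (SE 0.40, 95% interval -1.49 to 0.31; limma adjusted p 0.405), and without 3D replicate 4 it was -0.25. The antisense gene Gm27177 covers 5.57% of its exonic bases, and the strand setting of the counting is not given in the sources used here.

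Loxl3 (chr6:83034173-83052562, plus strand), a lysyl oxidase needed for palate and spine development in mice, was expressed at a low level. It had 10.2, 43.7, 25.2 and 37.5 normalized counts in 3D replicates 1 to 4, against 27.3, 70.5, 33.2 and 39.2 in 2D replicates 1 to 4. Replicate 1 was the lowest and replicate 2 the highest library in each group, and the groups overlapped. Its log2 fold change was -0.62 (SE 0.49, 95% interval -1.71 to 0.48; limma adjusted p 0.476), and -0.20 without 3D replicate 1. Htra2 on the opposite strand covers 11.6% of the exonic bases of Loxl3.

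Loxl1, best known for its part in elastic fibre assembly, lies at chr9:58287738-58313186 on the minus strand. It was near the detection limit, with 4 to 12 reads per 3D library and 13 to 22 reads per 2D library. It had 5.66, 3.49, 8.40 and 10.97 normalized counts on 3D collagen and 20.4, 15.5, 17.4 and 25.7 on 2D collagen. The groups did not overlap, but Loxl1 reached the minimum of 10 normalized counts in 4 libraries mainly through the 2D group, so the filter favoured this direction. The log2 fold change was -1.42 (SE 0.39, 95% interval -2.30 to -0.55), and the limma adjusted p of 0.0643 missed the threshold.

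Lox itself, the founding member of the family (chr18:52516067-52529867, minus strand), was close to absent. It had 0 reads in all 4 libraries on 3D collagen, and on 2D collagen it had 1 read in replicate 2 and 0 in the other 3 libraries. A count of 0 allows up to 3 reads, which is 0.116 to 0.191 CPM at the depth of these libraries (counting error only). Lox did not pass the filter and was not tested, and no fold is given.

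Per kilobase of exon, the lysyl oxidase levels summed to 217 ± 46.4 normalized counts per kb on 3D collagen and 424 ± 49.5 on 2D collagen (SD, n = 4 each). Loxl4 made up 70.8 ± 8.51% of that sum on 3D collagen and 77.6 ± 5.06% on 2D collagen. Loxl2 gave 25.3 ± 10.1% on 3D collagen and 18.8 ± 5.44% on 2D collagen, and Loxl3 and Loxl1 together with Lox gave the small remainder. The log2 ratio of Loxl2 to Loxl4 was 0.53 higher on 3D collagen, which was within the spread between libraries (exact permutation test, two-sided, p = 0.314, 0.471 adjusted over 9 pairs of related genes). The ratio of Loxl3 to Loxl4 differed by 0.50 (exact permutation p = 0.229, adjusted 0.471). The smallest p this design allows is 0.0286, which for 1 pair alone is 0.257 after adjustment, and 6 pairs would have to reach it to pass. That no pair passed therefore says little about the make-up of the family.

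Bmp1, the procollagen C-proteinase, which also cleaves the propeptides of LOX and LOXL1, lies at chr14:70474558-70520234 on the minus strand. It had 1581, 1647, 1817 and 1465 normalized counts in 3D replicates 1 to 4. On 2D collagen it had 3182, 3441, 2845 and 2077. Every 3D library was below every 2D library, with 2D replicate 4 the nearest. Bmp1 averaged 1627 ± 147 normalized counts on 3D collagen and 2886 ± 592 on 2D collagen (SD, n = 4 each), a log2 fold change of -0.81 (SE 0.18, 95% interval -1.20 to -0.41; limma adjusted p 0.0318). The call was lost when any of 6 libraries was left out (2D replicates 1 and 3 and all 4 libraries on 3D collagen, one at a time), with limma adjusted p between 0.0628 and 0.0940 and log2 fold changes between -0.86 and -0.75. Over all tested genes, limma fits with 1 library left out called 104 to 370 lower, against 401 with all 8 libraries. The Bmp1 call was also lost without the 3 libraries highest in intestine genes (log2 fold change -0.70, limma adjusted p 0.239).

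The lysyl hydroxylases were led by Plod3, the family member that also transfers glucose and galactose onto hydroxylysine. It lies at chr5:136987019-136996648 on the plus strand and had 4867, 4157, 4314 and 3761 normalized counts on 3D collagen. On 2D collagen it had 6107, 7264, 5653 and 6058. The groups did not overlap and each was narrow, with a coefficient of variation of 10.7% on 3D collagen and 11.04% on 2D collagen. The mean was 4275 ± 458 on 3D collagen and 6271 ± 693 on 2D collagen (SD, n = 4 each), with a log2 fold change of -0.55 (SE 0.14, 95% interval -0.88 to -0.23; limma adjusted p 0.0565). It passed with DESeq2 (adjusted p 0.00497), and with GC trends removed the log2 fold change was -0.33 (limma adjusted p 0.119). Znhit1 on the opposite strand covers 11.7% of its exonic bases.

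The 250 bases before the Plod3 start (chr5:136986769-136987018, GRCm38.p6, plus strand, from RefSeq) are shown as a contrast to the Loxl4 window, in a gene whose groups also did not overlap. Capitals mark the hypoxia core ACGTG, its single match to the motifs searched.

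Plod3: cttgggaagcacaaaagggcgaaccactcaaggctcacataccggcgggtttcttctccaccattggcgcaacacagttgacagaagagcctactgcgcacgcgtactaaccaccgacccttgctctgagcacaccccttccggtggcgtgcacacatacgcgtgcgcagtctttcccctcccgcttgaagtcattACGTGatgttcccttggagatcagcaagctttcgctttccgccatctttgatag

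The match stood 54 bases before the Plod3 start, and 55.6% of the window was G or C. Of the 10 genes, 4 had a promoter in the RefSeq table. In the Plod1 window (61.6% G or C) GC boxes stood 28 and 8 bases before the RefSeq start and a TATA core 232 bases before it. In the Serpinh1 window (63.6% G or C) a GC box stood 37 bases and a hypoxia core 171 bases before the start. No matches overlapped one another.

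Plod1, which hydroxylates lysines of the triple helix, lies at chr4:147909753-147936767 on the minus strand. It had 1976, 1149, 1266 and 865 normalized counts on 3D collagen, against 2005, 2873, 2033 and 1376 on 2D collagen. The groups overlapped through 3D replicate 1 and 2D replicate 4. The log2 fold change was -0.67 (SE 0.29, 95% interval -1.32 to -0.03), and the limma adjusted p was 0.188.

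Plod2, which hydroxylates lysines of the telopeptides, lies at chr9:92542223-92608428 on the plus strand. It had 347, 283, 307 and 297 normalized counts on 3D collagen and 583, 129, 251 and 292 on 2D collagen. The 3D libraries were close together, with a coefficient of variation of 8.85%, and all lay inside the range of the 2D libraries, where it was 61.4%. The log2 fold change was 0.17 (SE 0.39, 95% interval -0.70 to 1.05; limma adjusted p 0.826), and its sign turned without 2D replicate 2, the library with 129 (-0.18). The mean of the normalized counts themselves was 308 ± 27.3 on 3D collagen and 314 ± 193 on 2D collagen (SD, n = 4 each), so it lay slightly on the other side than the log2 fold change. Gm38391 on the opposite strand covers 6.42% of its exonic bases.

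Plod3 made up 79.3 ± 2.95% of the lysyl hydroxylase level per kilobase on 3D collagen and 79.3 ± 3.10% on 2D collagen (SD, n = 4 each), while the sum itself was 1197 ± 175 normalized counts per kb on 3D collagen and 1752 ± 216 on 2D collagen. Plod1 gave 15.9 ± 3.27% on 3D collagen and 17.3 ± 3.40% on 2D collagen. The log2 ratio of Plod2 to Plod3 was 0.73 higher on 3D collagen, with an SD of 0.0914 on 3D collagen and 0.993 on 2D collagen (exact permutation p = 0.143, adjusted 0.471). The log2 ratio of Plod1 to Plod3 differed by -0.12 (exact permutation p = 0.657, adjusted 0.739).

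Serpinh1, the collagen chaperone, was the most abundant of the 10 genes by far. It lies at chr7:99345376-99353239 on the minus strand. It had 20168, 20213, 19526 and 13755 normalized counts in 3D replicates 1 to 4 and 25866, 38275, 26117 and 19530.3 in 2D replicates 1 to 4. Replicates 1 to 3 on 3D collagen were within a narrow band with replicate 4 below it, and the groups overlapped through 2D replicate 4, which was also the lowest of its group. The mean was 18415 ± 3123 on 3D collagen and 27447 ± 7836 on 2D collagen (SD, n = 4 each), and the log2 fold change was -0.55 (SE 0.23, 95% interval -1.07 to -0.04; limma adjusted p 0.180). With GC trends removed the log2 fold change was -0.35, and without 2D replicate 2, the highest library, it was -0.38.

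Ordered by level per kilobase of exon, Serpinh1 came first with 7538 normalized counts per kb on 3D collagen and 11235 on 2D collagen. Plod3 followed with 946 on 3D collagen and 1388 on 2D collagen, and each of these genes was above the next in all 8 libraries. Bmp1 (183 on 3D collagen, 325 on 2D collagen), Plod1 (194 on 3D, 306 on 2D) and Loxl4 (154 on 3D, 328 on 2D) came next, and neighbours among these overlapped in both groups. Loxl4 was above Loxl2 (54.6 on 3D, 81.4 on 2D) in all 8 libraries, and Loxl2 and Plod2 (57.2 on 3D, 58.2 on 2D) could not be ordered, with Loxl2 higher in 4 of 8. Loxl3 (6.33 on 3D, 9.24 on 2D) and Loxl1 (2.16 on 3D, 6.00 on 2D) were the lowest above Lox, and overlapped each other.

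**Figure D3:**
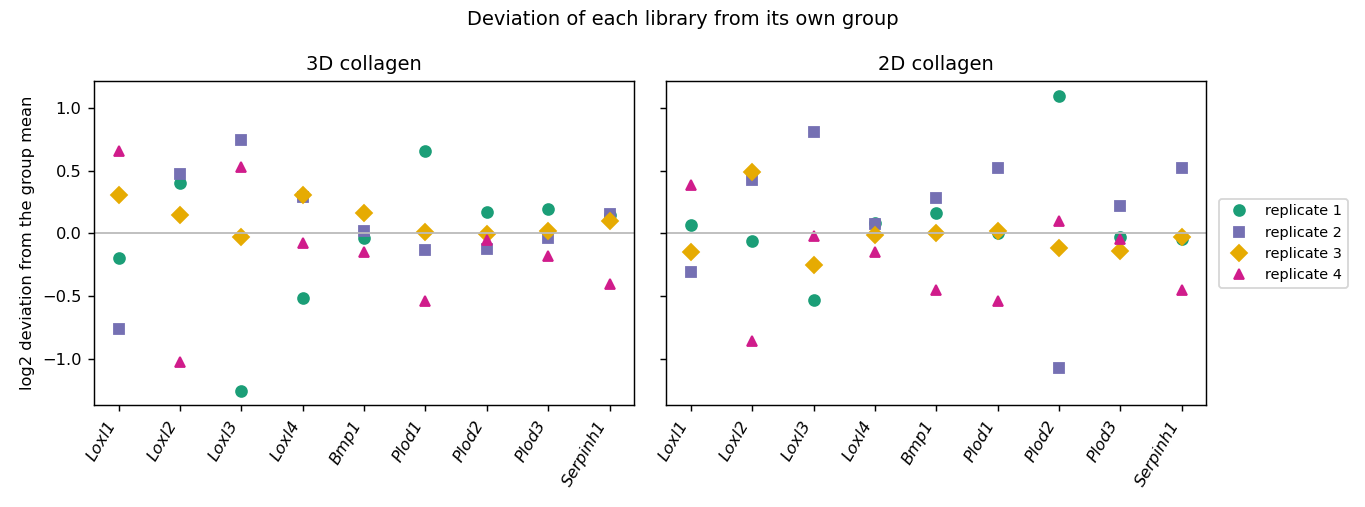
Deviation of each library from the mean of its own group, on the log2(normalized count + 1) scale (vertical axis), for the 9 tested genes (horizontal axis), on 3D collagen (left panel) and 2D collagen (right panel). Replicate 4 is the lowest for 5 genes in each panel, and Plod2 spreads widely in the 2D panel only.

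Library effects ran through several of these genes. On 3D collagen replicate 4 was the lowest of its group for 5 of 9 (Loxl2, Bmp1, Plod1, Plod3 and Serpinh1), as it was for 37.0% of all tested genes. On 2D collagen replicate 4 was the lowest for 5 of 9 (Loxl2, Loxl4, Bmp1, Plod1 and Serpinh1), against 30.6% of all tested genes. In 2D replicate 2, 5 of 9 were at their highest (Loxl3, Bmp1, Plod1, Plod3 and Serpinh1), against 33.2% of all tested genes, and Loxl1 and Plod2 were at their lowest. Acta2, a smooth muscle actin that epithelial lines can also express, was likewise lowest in replicate 4, at 238 CPM on 3D collagen and 429 CPM on 2D collagen. In replicates 1 to 3 it had 549, 805 and 884 CPM on 3D collagen and 2140, 1210 and 1159 CPM on 2D collagen. Cnn1, a further smooth muscle marker, was also lowest in replicate 4, at 2.44 CPM on 3D collagen and 2.80 CPM on 2D collagen. Des stayed under 1 CPM throughout and Myh11 did not exceed 1.22 CPM, and neither was lowest in replicate 4. The part of these library differences in the results was not tested beyond leaving libraries out. Without both libraries numbered 4, Loxl4 and Bmp1 were again the genes called lower.

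Other genes of the pathway were counted in 7 lists, in which 49 of 69 genes were tested, 3 were called lower and 0 higher (limma), which is 6.12% lower against 3.39% of all tested genes. With edgeR and with DESeq2 0 list genes were also called higher, and at an unadjusted p under 0.05 limma had 2 higher and 7 lower, against 11.7% and 12.6% of all tested genes. The number called lower was 0 without 3D replicate 3, and without 3D replicate 2 it was 1 (Thbs1). Over all tested genes those fits called 104 and 143 lower, against 401 with all libraries. The median log2 fold change over the 49 was -0.23.

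Of the genes of prolyl hydroxylation, 9 of 10 were tested and none was called in either direction with all 8 libraries by limma as described above or by edgeR with TMM, with 1 at an unadjusted limma p under 0.05 (P4ha1). The most abundant were P4hb, the shared subunit of prolyl 4-hydroxylases, with 30714 ± 9459 normalized counts on 3D collagen and 43433 ± 11256 on 2D collagen, and Ppib, a prolyl isomerase. Their log2 fold changes were -0.52 (limma adjusted p 0.268) and -0.11 (limma adjusted p 0.739), and Snx22 on the opposite strand covers 24.96% of the exonic bases of Ppib. The catalytic subunit P4ha1, picked after its values were seen, averaged 2033 ± 309 on 3D collagen and 3874 ± 1184 on 2D collagen with no overlap (-0.89; limma adjusted p 0.0561). P4ha1 was called lower with DESeq2 (adjusted p 0.00490), in limma with GC trends removed (0.00958) and in limma without 2D replicate 2 (0.0161). With edgeR and TMM (adjusted p 0.0523) or limma with library-size scaling (0.142) it was not called. Nor was it called without any other single library (limma adjusted p 0.0860 to 0.152).

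Of the chaperones, glycosyltransferases and export factors, 13 of 14 were tested, and Slc39a13 was called lower. This zinc transporter is needed for normal lysyl hydroxylation of collagen in humans. It had 891, 1184, 1084 and 1003 normalized counts on 3D collagen and 1638, 2981, 1686 and 2009 on 2D collagen, without overlap (log2 fold change -0.96, SE 0.21; limma adjusted p 0.0296). Its call was lost without 2D replicate 4 or any single 3D library (limma adjusted p 0.0580 to 0.0914). Those fits called 104 to 313 lower over all tested genes, against 401 with all libraries. The general chaperones Hspa5 and Pdia3 were the most abundant of the list, with log2 fold changes of -0.23 (limma adjusted p 0.455) and 0.38 (0.167). The list median was 0.20, on the other side of 0 than the median of the 9 tested genes above.

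Among propeptidases and their enhancers 5 of 9 were tested, and in copper delivery 5 of 6. With all 8 libraries, 0 genes of either list were called in either direction by limma as described above, by edgeR with TMM or by DESeq2, and 0 had an unadjusted limma p under 0.05. Tll1, a BMP1-like propeptidase at a low level, had 9.06, 7.86, 11.2 and 11.9 normalized counts on 3D collagen. On 2D collagen it had 40.9, 4.78, 24.5 and 18.4 (log2 fold change -0.77, limma adjusted p 0.439). DESeq2 gave it no adjusted p. It was called lower only in limma with GC trends removed and 2D replicate 2, its lowest library, left out (log2 fold change -1.40, adjusted p 0.0452). That setting was chosen after seeing the data. Pcolce, which speeds up cleavage by BMP1, averaged 928 ± 68.3 normalized counts on 3D collagen and 1542 ± 964 on 2D collagen, with 2917 in 2D replicate 2 alone (log2 fold change -0.54, limma adjusted p 0.407). The related Pcolce2 was high in both libraries numbered 4, with 382 in the 3D one and 343 in the 2D one, against at most 66.2 in each of the other 6. Atox1, a copper chaperone, averaged 3190.3 ± 267 on 3D collagen and 3207 ± 717 on 2D collagen, and its log2 fold change was 0.02 (limma adjusted p 0.970). For Commd1, another gene of copper handling, the log2 fold change was -0.36 (limma adjusted p 0.310).

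Of the substrates and binding partners of lysyl oxidases 7 of 13 were tested and 2 were called lower. Thbs1, a matricellular protein, had 1495, 1290.4, 1225 and 629 normalized counts on 3D collagen and 5472, 9558, 7287 and 2649.8 on 2D collagen. Fn1, the matrix glycoprotein fibronectin, had 82858, 76904, 62585 and 58541 on 3D collagen and 165160.4, 114117, 173399 and 132224 on 2D collagen. The groups did not overlap for either gene, with log2 fold changes of -2.35 for Thbs1 (SE 0.41; limma adjusted p 0.0157) and -1.05 for Fn1 (SE 0.20; limma adjusted p 0.0205). The Fn1 call was lost without 2D replicate 3, 3D replicate 2 or 3D replicate 3 (limma adjusted p 0.0525 to 0.0844), and the Thbs1 call without 3D replicate 3 (0.0543). Those fits called 104 to 213 lower over all tested genes, against 401 with all libraries. Elastin (Eln) did not pass the filter.

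Of 11 fibrillar chains 4 were tested, and with all 8 libraries none was called by limma, edgeR with TMM or DESeq2 or had an unadjusted limma p under 0.05. Col5a2, a chain of type V collagen, averaged 222 ± 70.8 normalized counts per kb on 3D collagen and 241 ± 37.3 on 2D collagen. Col1a1 had 6.34 ± 1.81 per kb on 3D collagen and 11.05 ± 4.11 on 2D collagen (log2 fold change -0.73, limma adjusted p 0.253). Col1a2 and Col3a1 were under 1 normalized count per kb in mean in each group and were not tested. The Serpinh1 level per kb given above was far over that of both chains of type I collagen in each group.

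All 6 chains of type IV collagen were tested, and with all 8 libraries none was called by limma as described above, edgeR with TMM or DESeq2 or had an unadjusted limma p under 0.05. Col4a1 and Col4a2 were called lower under some other settings. The most abundant, Col4a5, averaged 2485 ± 890.5 normalized counts on 3D collagen and 2157 ± 1218 on 2D collagen (log2 fold change 0.35; limma adjusted p 0.705). Col4a2 averaged 696 ± 344 on 3D collagen and 1834 ± 1079 on 2D collagen (log2 fold change -1.26; limma adjusted p 0.339).

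**Figure D4:**
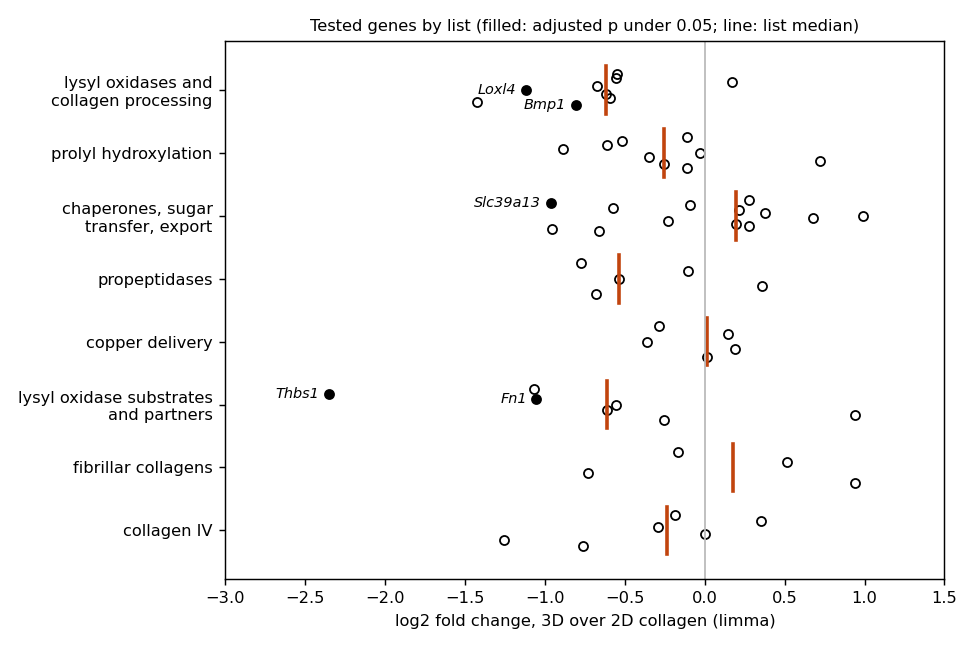
Log2 fold change of 3D over 2D collagen (horizontal axis) for the tested genes of each list (rows), with the 9 tested genes of lysyl oxidation and collagen processing in the top row. Each point is a gene, filled where the limma adjusted p is under 0.05, and the vertical line is the list median, which runs between -0.62 in the top row and 0.20 for chaperones, sugar transfer and export.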

How the data were processed

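RNA of MOE cells was sequenced in 8 libraries, 4 on 3D and 4 on 2D collagen, grouped by their titles. The submitters' processing notes name HTSeq 0.6.1p1 as the read counter, mm10 as the build, and DESeq2. For the aligner, annotation, strand setting and filters the sources used here give nothing. Each deposited value is a normalized signal for 1 gene symbol. In every library 100% of them were whole multiples of the worth of 1 read (tolerance 0.001 reads), and the divisors matched recomputed DESeq2-type size factors, so they are read counts over 1 size factor per library.

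The test was limma 3.58.1 (R 4.3.3) on log2(normalized count + 1), which understates changes of low genes, with a trended, robust prior, over genes with at least 10 in at least 4 libraries, with Benjamini-Hochberg adjustment over all 11820 and a threshold of 0.05. edgeR 4.0.16 (quasi-likelihood, TMM) on the recovered reads called 379 genes lower and 303 higher, and DESeq2 1.42.0 was a further alternative. Other alternatives were TMM or library-size scaling in limma, pseudocounts of 0.5 and 5, no filter or a minimum of 50, removal of GC trends per library (lowess, span 30%), a replicate block, and dropping each library in turn. Chosen after seeing the data were these additions: edgeR with library size, leaving out both libraries numbered 4, GC removal without 2D replicate 2, and leaving out the 3 libraries highest in intestine genes. The fits were tested on simulated data.

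The 10 genes and the lists were chosen with earlier results of these data known. Named besides the 10 were list genes past the threshold (up to 4 per list), the 2 most abundant of a list where fewer than 2 passed, Col1a1, Col1a2 and Col3a1, and the 3 genes most like the called gene with the smallest p. Positions, exon lengths and overlaps are from GENCODE M21, which held 22872 of the 23337 symbols (1919 through an older symbol). Promoters are from RefSeq.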

Additional observations from a re-analysis of the deposited data

Results flagged for a closer look

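Serpinh1 in 3D replicate 4, at 13755 normalized counts, lay far below the other 3 libraries on 3D collagen, which were between 19526 and 20213. The gap to its nearest neighbour was 0.894 of the range of the group. The values of the 9 tested genes in 2 groups each were examined, and with that many looked at such a gap can arise by chance. The cause was not tested.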

How the results depend on the processing

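Of the 10 genes, 2 were called lower (Loxl4 and Bmp1) under every scaling, pseudocount and filter tried, with edgeR (TMM or library size), with GC trends removed and without both libraries numbered 4. DESeq2 called 3, adding Plod3, and over all genes it called 881 lower and 703 higher, against 401 and 275 in the test reported. It gave no adjusted p for Loxl1. With 1 library left out the number of the 10 called lower was 1 to 2, in fits that called 104 to 370 lower over all tested genes. It was 1 with GC trends removed and 2D replicate 2 left out, where the adjusted p of Bmp1 was 0.0642 (limma). It was 0 when 2D replicate 2 and 3D replicates 1 and 2 were left out together. Over its alternatives the adjusted p was 4.02e-05 to 0.126 for Loxl4 and 0.000806 to 0.239 for Bmp1. No setting called one of the 10 higher.

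With the replicate block the number called lower was 4 with limma (adding Loxl1, adjusted p 0.0372, and Plod3, 0.0496) and 3 with edgeR. The block also raised the calls over all tested genes, to 742 lower and 663 higher with limma. With edgeR and the block they were 656 lower and 673 higher. The test reported had 401 lower and 275 higher. The replicate numbers were not taken to pair the libraries, since deviations from the group means correlated at -0.17, 0.37, 0.25 and 0.81 for numbers 1 to 4. Of the 3D libraries, replicates 2, 3 and 4 correlated best with the 2D library of their own number. 3D replicate 1 correlated best with 2D replicate 2 (0.45).

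The number of list genes called lower, 3 in the test reported, was 7 with DESeq2, 9 with the replicate block in limma (among them P4ha1, 0.0127, P4ha2, 0.0463, Col4a1, 0.0299, and Col4a2, 0.00660), 8 with the block in edgeR (P4ha1, 0.0167, Col4a1, 0.0361, and Col4a2, 0.00744), 5 with GC trends removed, 5 with GC trends removed and 2D replicate 2 left out, 0 to 4 with 1 library left out, and 0 with 2D replicate 2 and 3D replicates 1 and 2 all left out. Over all genes, DESeq2 and the block called more lower as well, as given above. Removing GC trends called 605 lower over all genes, and 488 with 2D replicate 2 also left out. Fits with 1 library left out called 104 to 370 lower over all genes. The fit without 2D replicate 2 and 3D replicates 1 and 2 called 14 lower, against 401 in the test reported. The cause was not tested. Plod2 turned below 0 with DESeq2 (-0.0255), with GC trends removed (-0.0478), with these removed and 2D replicate 2 left out (-0.22), with those 3 libraries left out (-0.21), and within a range of -0.18 to 0.54 over libraries left out. Depth limited Lox and Loxl1, with at most 22 reads in any library.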

Other observations

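Col4a1 and Col4a2, neighbouring genes whose products form the most widespread type IV collagen, were looked at after their values were seen. Col4a1 had 949, 909, 923 and 190.2 normalized counts in 3D replicates 1 to 4 and 1575, 1425, 2173 and 255 in 2D replicates 1 to 4. Col4a2 had 862, 913, 827 and 182 on 3D collagen and 1877, 2793, 2351 and 316 on 2D collagen. Replicate 4 was the lowest library of each group for both genes, and in the other 3 libraries the groups did not overlap. Without a replicate block and with all libraries, the limma adjusted p was 0.570 for Col4a1 and 0.339 for Col4a2. Without both libraries numbered 4, an alternative chosen after seeing the data, the log2 fold changes were -0.87 for Col4a1 (limma adjusted p 0.0482) and -1.41 for Col4a2 (0.00955). Both were also called lower in the fits with the replicate block.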
